A study of Rattus norvegicus with 6 samples.

Results

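The genes described here encode the subunits, activators, inhibitor and assembly chaperones of the proteasome, measured in rat pancreatic beta cells after a fast and under free feeding. They were taken by symbol: a probe set counted where its only gene symbol was Psma, Psmb, Psmc, Psmd, Psme, Psmf or Psmg followed by a number, and of several probe sets the brightest over the 6 arrays stood for the gene. This gave 44 of the 14217 genes measured on the array, namely 7 Psma, 9 Psmb, 6 Psmc, 14 Psmd, 3 Psme and 4 Psmg genes and Psmf1. Psmb6 and Psme3 are not among them, because their probe sets also carry symbols of other genes. Psmc3ip and Psme3ip1, whose symbols begin like those of Psmc3 and Psme3, do not encode parts of the proteasome and were set apart by name.

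Both groups consisted of male Wistar rats, 10 weeks old and of no stated genetic modification. Rats of the fasted group had gone without food for 24 h and those of the fed group ate ad libitum. Fluorescence-activated cell sorting (FACS) gave the beta cells, which were frozen without culture, and RNA of all isolates was extracted together. Each group has 3 arrays, and each array holds RNA of an independent isolate pooled from 5 rats, so that differences between single animals were not seen.

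The proteasome is the protease that removes most short-lived and misfolded proteins of the cytosol and nucleus once they are tagged with ubiquitin. Its barrel-shaped core particle is built of Psma and Psmb subunits, with the active sites on some of the Psmb subunits, and its regulatory particle, made of Psmc ATPases and Psmd subunits, binds, deubiquitylates, unfolds and threads the substrate. Beta cells synthesise large amounts of proinsulin, and chains that fail to fold are returned from the endoplasmic reticulum to the cytosol for degradation by the same protease.

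The values are linear hybridization intensities, which can be compared between arrays for a given probe set but not between probe sets. All 44 genes were brighter than the median probe set (20.2) and none of their values lay at or below the floor of 3.27 used in the fit. Fasted replicate 1 stands apart from the other arrays: its log2 values correlated with theirs at 0.877 to 0.929, against at least 0.933 between any of the others. The other 2 fasted arrays also differed. Fasted replicate 3 correlated with the fed arrays at 0.956 to 0.958 and with fasted replicate 2 at 0.945, and fasted replicate 2 with the fed arrays at 0.933 to 0.940. Median intensity was 17.1, 17.8 and 21.0 on the fasted arrays, against 21.1, 21.8 and 20.2 on the fed arrays, and the median log2 change of all genes was -0.19. Fasted replicate 1 held the lowest value of 6148 genes (43.2%) and of 29 proteasome genes (65.9%). The main counts and medians and the changes of some genes are therefore also given without it. Marker genes showed beta cells in both groups (summed intensity of 7 markers 22725 to 24166 on fasted arrays and 23603 to 24768 on fed arrays), 8 markers of alpha, delta and PP cells summed to 13332 to 13553 on fasted and 10239 to 18022 on fed arrays, with the highest sum in fed replicate 2, and 14 leukocyte markers summed to 192 to 206 on fasted and 182 to 308 on fed arrays. Acinar markers were bright on every array, with sums of 16 genes of 64145 to 74711 on fasted and 70581 to 77729 on fed arrays, while 6 duct markers summed to 475 to 560 on fasted and 390 to 446 on fed arrays. Among all markers of these and other cell types of the pancreas, the acinar genes Ptf1a and Bhlha15 were lower and the duct gene Krt19 and the endothelial gene Flt1 higher at the thresholds used below, and their part in the results was not tested. In these bulk isolates, fewer cells of a type and less RNA per cell cannot be told apart.

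Psmd1, Psmd4 and Psmd14, subunits of the regulatory particle, were 2.07, 1.82 and 1.69-fold lower in fasted than in fed beta cells, and no proteasome gene was higher. Most of the other members had negative changes of less than 1.5-fold. Of the 44 genes, 38 had a negative log2 change (fasted over fed), against 67% of all genes. This count was 30 when arrays were quantile normalized and 27 when they were scaled to their 75th percentiles. The median log2 change of all genes was then -0.014 and 0.033, so the 67% does not serve as the background of these counts. A gene was called lower or higher where it differed at least 1.5-fold with an unadjusted p under 0.05 in limma's moderated test. Only these 3 genes were lower by this rule and none was higher, against 9.51% of all genes called lower and 2.29% called higher, and the 3 genes are 6.82% of the proteasome genes. Of the 9198 genes brighter than the median probe set, 11.2% were called lower. At an unadjusted p under 0.05 without the fold, 18 proteasome genes (40.9%) were lower and none higher, against 14.9% of all genes lower and 3.64% higher, and 19.5% of the brighter genes lower. After Benjamini-Hochberg adjustment 0 genes passed 0.05 in limma, among the proteasome genes (lowest adjusted p 0.177) or among all genes (0%).

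All 3 fasted values lay below all 3 fed values for 22 proteasome genes (50%), against 21.2% of all genes and 27.4% of the brighter genes, and no proteasome gene showed the opposite, against 5.76% of all genes. Each fasted array was below the fed mean for 34 proteasome genes (77.3%), against 38.4% of all genes. The median log2 change of the proteasome genes was -0.30 (quartiles -0.41 and -0.12), 0.11 below the median of all genes. Set against the fed mean, the median proteasome gene differed by -0.42, -0.18 and -0.20 in fasted replicates 1, 2 and 3, where the median of all genes differed by -0.33, -0.20 and -0.05. In fasted replicate 2 the proteasome genes thus lay no lower than genes at large, and in fasted replicates 1 and 3 they lay lower. Without fasted replicate 1, 14 proteasome genes (31.8%, against 13.2% of all genes) were lower at an unadjusted p under 0.05, 13 of them among the 18. The median was then -0.20, against -0.12 for all genes. For 23 genes (52.3%) the fasted values lay without overlap below the fed values, against 25.1% of all genes and 31.3% of the brighter genes. Without fed replicate 1 or fed replicate 3, 8 (18.2%) and 7 (15.9%) proteasome genes were lower at the unadjusted p, against 7.68% and 8.56% of all genes. Quantile normalization, which brings the median of all genes to -0.014, left 9 lower (20.5%, against 9.15% of all genes), all among the 18, and scaling to the 75th percentile left 5 (11.4%, against 7.33%).

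**Figure D1:**
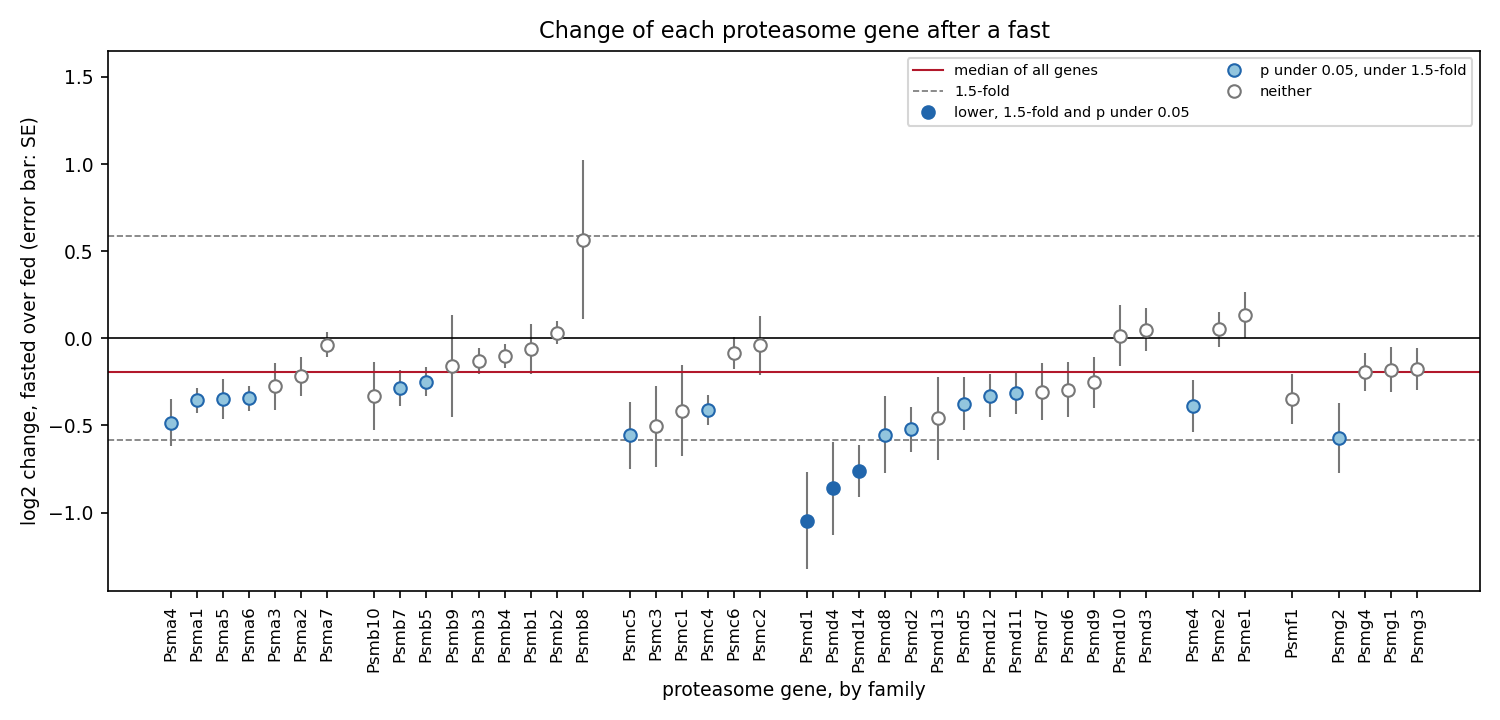
Log2 change of each of the 44 proteasome genes, fasted over fed, with the standard error of the fit (3 arrays per group), grouped by family. Most points lie below 0, the 3 dark points, past 1.5-fold and an unadjusted p under 0.05, are Psmd1, Psmd4 and Psmd14, and light blue points passed the p alone.

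The 20 genes of the regulatory particle had a median log2 change of -0.39, with 10 at an unadjusted p under 0.05 and 11 without overlap, and the 16 genes of the core particle a median of -0.23, with 6 and 9. Of the genes brighter than the median probe set, 19.5% passed that p as lower and 27.4% lay without overlap below the fed arrays. On the fasted arrays the median regulatory gene stood at -0.49, 0.03 and -0.07 relative to its mean over the 6 arrays, against 0.25, 0.13 and 0.26 on the fed arrays. The median core gene stood at -0.26, -0.04 and -0.06 on the fasted arrays, against 0.09, 0.11 and 0.07 on the fed arrays. The groups do not overlap in either particle, and neither do they for the median of all genes, at -0.23, -0.10 and 0.04 on the fasted arrays, against 0.11, 0.09 and 0.09 on the fed arrays. Relative to that median both particles overlap. The regulatory genes then stood at -0.26, 0.13 and -0.11 on the fasted arrays, against 0.14, 0.04 and 0.17 on the fed arrays. The core genes stood at -0.03, 0.06 and -0.09 on the fasted arrays, against -0.02, 0.02 and -0.03 on the fed arrays. Fasted replicate 2 is thus above all fed arrays in the core and above fed replicate 2 in the regulatory particle. Relative to all genes the Psma, Psmb, Psmc, Psmd and Psmg families each overlap too, and the median Psmb gene in fasted replicates 1 and 2 (0.094 and 0.091) lies above all fed arrays (-0.069, -0.018 and -0.069). Without fasted replicate 1 the median log2 changes were -0.23 for the regulatory and -0.14 for the core particle. The difference between the particles was not tested.

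**Figure D2:**
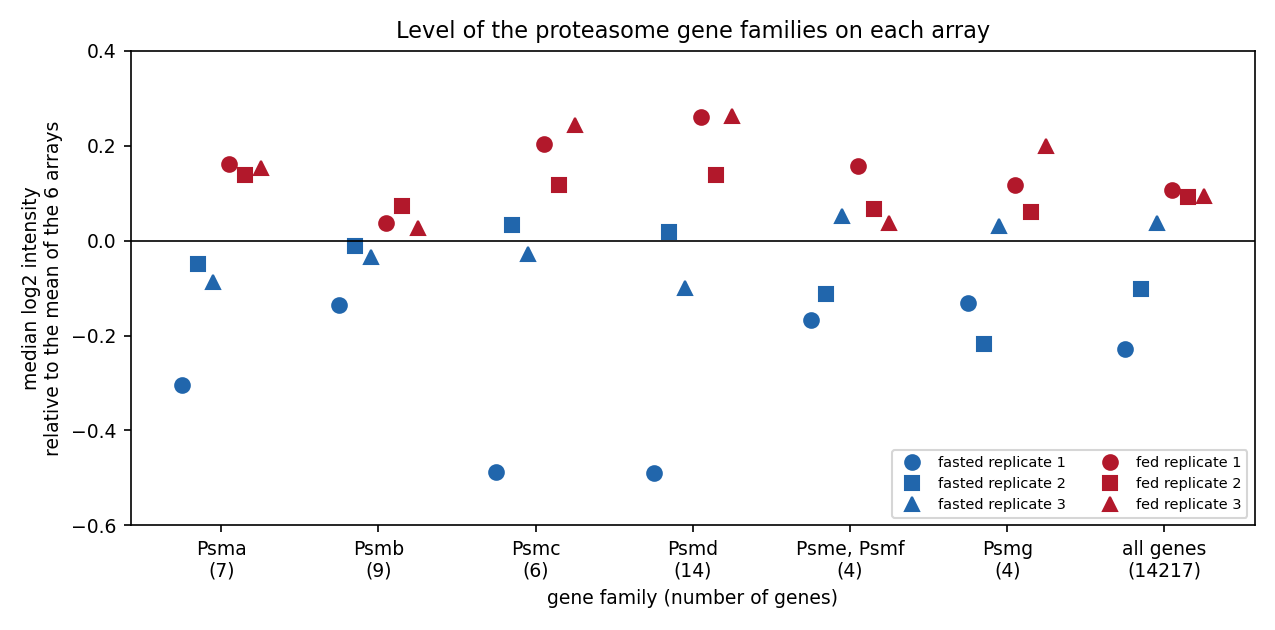
Median log2 intensity of the genes of each family on each array, relative to each gene's mean over the 6 arrays; blue fasted, red fed. Fasted replicate 1 is lowest in the Psma, Psmb, Psmc, Psmd and joint Psme and Psmf families, at -0.49 in Psmc and Psmd, and the fasted arrays lie below the fed arrays in the Psma, Psmb, Psmc, Psmd and Psmg families and in all genes.

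The base of the regulatory particle held the lowest log2 change of any proteasome gene. Psmd1, a large scaffold subunit of the base, had intensities of 26.9, 29.4 and 46.1 in fasted beta cells, against 84.1, 55.7 and 68.7 in fed beta cells. Every fasted value was below every fed value. Mean intensity was 34.1 ± 10.5 in fasted and 69.5 ± 14.2 in fed cells (SD, n = 3 each), a 2.07-fold lower level on the log2 scale (log2 change -1.05, SE 0.28, limma adjusted p = 0.236). Without fasted replicate 1 the change was -0.90 (limma adjusted p = 0.325). Psmd4, a receptor for ubiquitin chains, had 66.5, 121 and 133 in fasted cells, against 192, 178 and 188 in fed cells. Here fasted replicate 1 lay far below the other 2 fasted arrays, which were themselves below all fed arrays. Psmd4 averaged 107 ± 35.4 in fasted and 186 ± 7.34 in fed cells (SD, n = 3 each), 1.82-fold lower (log2 change -0.86, SE 0.27, limma adjusted p = 0.272). Without fasted replicate 1 its change of -0.55 (limma adjusted p = 0.193) no longer reached 1.5-fold, and without fed replicate 1 (-0.84) or fed replicate 3 (-0.85) its unadjusted p was over 0.05.

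Psmd2, the scaffold on which shuttle proteins dock, had 273, 355 and 359 in fasted cells, against 491, 447 and 471 in fed cells. The groups did not overlap, and the log2 change of -0.52 (SE 0.13, limma adjusted p = 0.218) was under 1.5-fold. Psmd1, Psmd2 and Psmd4, the 3 non-ATPase base subunits with Psm names, thus all had an unadjusted p under 0.05. Of the brighter genes, 19.5% passed that p as lower. The median log2 change of these 3 genes was -0.86. Adrm1, a base subunit outside the Psm names, had a log2 change of -0.35 (SE 0.35, limma adjusted p = 0.62). Its groups overlapped, and fasted replicate 1 held its highest value of all arrays.

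In the lid, the metalloprotease subunit Psmd14, which cuts ubiquitin chains off substrates before they are unfolded, had intensities of 144, 159 and 197 in fasted cells, against 314, 263 and 265 in fed cells. All fasted values were below all fed values, with the lowest again in fasted replicate 1. Means were 167 ± 27.7 in fasted and 281 ± 29.0 in fed cells (SD, n = 3 each), a 1.69-fold lower level (log2 change -0.76, SE 0.15) with the lowest p of the 44 genes (limma adjusted p = 0.177). Without fasted replicate 1 the change was -0.66 (limma adjusted p = 0.228). The other 2 probe sets of Psmd14 also passed both thresholds, at -0.76 (82.9, 122 and 180 in fasted cells, against 175, 210 and 241 in fed cells) and at -0.98 (17.6, 28.7 and 41.6, against 68.0, 50.0 and 47.4). Only the brighter of these had an overlap, of fasted replicate 3 with fed replicate 1. These probe sets read the same RNA and are not independent.

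The 8 lid subunits with Psmd names together had a median log2 change of -0.32. Of the 8 changes, 7 were negative and 4 (50%) had an unadjusted p under 0.05. Of the genes brighter than the median probe set, 19.5% were lower at that p. Sem1, a lid subunit outside the Psm names, had a change of -0.14 (limma adjusted p = 0.437), without overlap of the groups. Psmd8 (-0.55, limma adjusted p = 0.331), Psmd12 (-0.33, limma adjusted p = 0.312) and Psmd11 (-0.31, limma adjusted p = 0.322) are scaffold subunits of the lid that met the p but not the fold. Psmd7, the partner of Psmd14 in its catalytic dimer, had 159, 239.7 and 199 in fasted cells, against 241, 227 and 261 in fed cells, so that the groups overlapped (-0.31, limma adjusted p = 0.404). Psmd3, a lid scaffold, had the highest change of the Psmd family: 153, 135 and 124 in fasted cells, against 140.3, 122 and 135 in fed cells (0.048, limma adjusted p = 0.86). Its groups overlapped throughout.

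The 6 Psmc genes encode the ATPase ring that unfolds substrates, and all 6 changes were negative, with a median of -0.41. None reached both thresholds. Psmc5 was among the study's reference genes for qPCR normalization. It had 141, 219 and 226 in fasted cells, against 288, 278 and 278 in fed cells, with means of 195 ± 47.4 in fasted and 281 ± 5.64 in fed cells (SD, n = 3 each). The groups did not overlap, and fasted replicate 1 was the lowest by far. The log2 change was -0.56 (SE 0.19, limma adjusted p = 0.29), and -0.34 without that array (limma adjusted p = 0.206). Psmc4 had the more even groups, at 164, 181 and 166 in fasted cells, against 221, 228 and 229.5 in fed cells (-0.41, SE 0.09, limma adjusted p = 0.193). Psmc2 had the change nearest 0 in the ring (-0.039, SE 0.17): 887.5, 1249.7 and 827 in fasted cells, against 1006, 914 and 1083 in fed cells. Fasted replicate 2 held its highest value of all arrays.

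**Figure D3:**
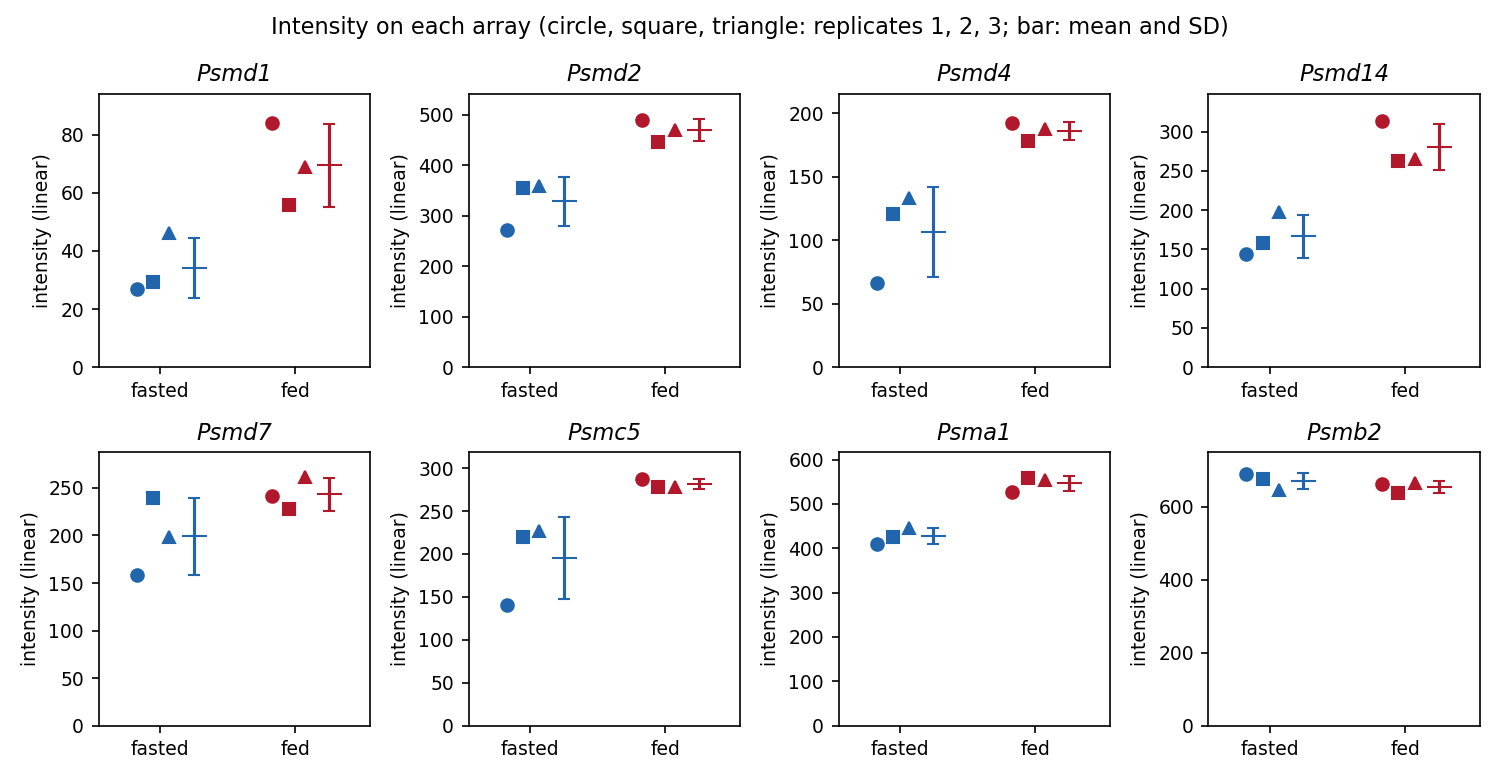
Intensity of 8 proteasome genes on each of the 6 arrays (linear axes from 0), fasted left and fed right, with the mean and SD beside the points. In Psmd1, Psmd2, Psmd4, Psmd14, Psmc5 and Psma1 the fasted arrays lie below the fed arrays, with replicate 1 lowest of the fasted arrays, while Psmd7 and Psmb2 overlap.

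Psmd5, Psmd9 and Psmd10 are chaperones that hold the ATPase ring during its assembly and leave the finished particle. Psmd5 had a log2 change of -0.37 (limma adjusted p = 0.334), Psmd9 of -0.25 (limma adjusted p = 0.43) and Psmd10, also known as gankyrin, of 0.014 (limma adjusted p = 0.983). Psmd10 spread widely among fasted arrays, at 149.98, 200.5 and 236, against 182, 192 and 197 on the fed arrays, with fasted replicate 1 lowest and fasted replicate 3 highest of all. A dimmer probe set of Psmd9 passed both thresholds (15.0, 17.0 and 22.9 in fasted cells, against 39.6, 28.9 and 27.1 in fed cells, log2 change -0.80, limma adjusted p = 0.311), where its brightest one did not. Across the 9 genes with several probe sets, 11 of the 14 dimmer ones had a negative change, 4 passed both thresholds as lower and 0 as higher (8.43% and 2.37% of all probe sets), and all 9 of those brighter than the median probe set were negative.

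The 250 bases before the start site in RefSeq (build GRCr8) are shown for 4 genes. They set the base subunits Psmd1, Psmd2 and Psmd4 beside Psmb2, a core subunit whose change was near 0. Capitals mark the motifs TGACNNNGC, the core of the antioxidant response element bound by NFE2L1 and NFE2L2, and CCAAT, bound by NF-Y, each searched on both strands (CCAAT on the opposite strand reads ATTGG). The windows are chr9:94157721-94157970 on the plus strand for Psmd1, chr11:93763389-93763638 on the minus strand for Psmd2, chr2:185297202-185297451 on the minus strand for Psmd4 and chr5:144254808-144255057 on the plus strand for Psmb2, and each reads 5′ to 3′ towards the gene.
Psmd1: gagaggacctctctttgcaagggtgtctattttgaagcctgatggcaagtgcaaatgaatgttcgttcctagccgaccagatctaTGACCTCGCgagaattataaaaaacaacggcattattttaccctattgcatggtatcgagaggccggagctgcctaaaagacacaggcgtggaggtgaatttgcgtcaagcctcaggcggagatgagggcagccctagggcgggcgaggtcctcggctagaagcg
Psmd2: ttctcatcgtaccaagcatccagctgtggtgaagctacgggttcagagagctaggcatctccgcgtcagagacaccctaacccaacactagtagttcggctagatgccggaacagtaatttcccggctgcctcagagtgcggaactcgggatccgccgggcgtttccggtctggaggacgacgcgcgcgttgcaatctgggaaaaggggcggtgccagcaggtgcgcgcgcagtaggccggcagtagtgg
Psmd4: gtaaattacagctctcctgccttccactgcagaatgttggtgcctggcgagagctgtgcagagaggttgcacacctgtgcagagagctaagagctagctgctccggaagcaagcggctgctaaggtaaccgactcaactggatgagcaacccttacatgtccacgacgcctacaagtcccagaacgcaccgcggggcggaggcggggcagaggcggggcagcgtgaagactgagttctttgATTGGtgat
Psmb2: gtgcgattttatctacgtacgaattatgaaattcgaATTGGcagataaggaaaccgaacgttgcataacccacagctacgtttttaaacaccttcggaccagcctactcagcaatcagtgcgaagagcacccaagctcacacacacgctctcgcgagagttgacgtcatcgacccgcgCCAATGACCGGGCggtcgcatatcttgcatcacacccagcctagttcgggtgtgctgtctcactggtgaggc

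Psmd1 holds TGACNNNGC 165 to 157 bases before its start, Psmd4 an opposite-strand CCAAT 9 to 5 bases before it, and Psmd2 neither motif. In Psmb2 a CCAAT and a TGACNNNGC overlap by a base, at 72 to 60 bases before the start, and another CCAAT lies on the opposite strand at 214 to 210. RefSeq windows matched 40 of the 44 genes, with none for Psma7, Psmd6, Psmd12 and Psmd14. TGACNNNGC was found in 6 of the 40 (15%), namely Psma3, Psmb2, Psmb5, Psmd1, Psmd9 and Psme4, against 12.1% of the windows of genes on the array and 10.1% of all 33469 windows of this length. CCAAT was found in 19 of the 40 (47.5%), against 34.6% of the windows of genes on the array and 34% of all windows. Among the 16 matched genes lower at an unadjusted p under 0.05, 3 (18.8%) held TGACNNNGC and 5 (31.2%) CCAAT, against 3 (12.5%) and 14 (58.3%) of the other 24. A match is a run of letters and not a shown binding site, and no test was run on these shares.

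Of the core particle, the outer Psma rings had a lower median than the inner Psmb rings. All 7 Psma changes were negative with a median of -0.34, 4 (57.1%) had an unadjusted p under 0.05 and 5 (71.4%) had no overlap. The 9 Psmb genes had a median of -0.13, above the -0.19 of all genes, with 2 (22.2%) and 4 (44.4%). Of the genes brighter than the median probe set, 19.5% were lower at that p and 27.4% lay without overlap below the fed arrays. The Psma subunits form the gate through which substrates enter. Psma4 had 128, 149 and 172 in fasted cells, against 220.2, 191 and 213 in fed cells, with no overlap. Its log2 change of -0.48 (SE 0.14, limma adjusted p = 0.256) was the lowest of the core, and without fasted replicate 1 it was -0.38. Psma1 had 409, 426 and 446 in fasted cells, against 527, 559 and 553 in fed cells (-0.36, SE 0.07, limma adjusted p = 0.19). Psma6 (-0.34, limma adjusted p = 0.191) and Psma5 (-0.35, limma adjusted p = 0.283) were close to it, whereas Psma7 had 527, 484 and 474 in fasted cells, against 507, 509.9 and 504 in fed cells (-0.036, limma adjusted p = 0.819). In Psma7, unlike Psma1, fasted replicate 1 held the highest value of all arrays.

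Proteolysis rests on Psmb5, Psmb6 and Psmb7, and interferons replace them by Psmb8, Psmb9 and Psmb10, the immunoproteasome subunits, which favour peptides for presentation to T cells. Psmb5, the chymotrypsin-like subunit, had 489.8, 467 and 434 in fasted cells, against 539.5, 531 and 581 in fed cells (means 464 ± 28.1 and 551 ± 26.9, SD, n = 3 each; log2 change -0.25, SE 0.08, limma adjusted p = 0.283). Psmb7, the trypsin-like subunit, had 287, 308 and 345 in fasted cells, against 391, 354 and 399 in fed cells (-0.29, SE 0.10, limma adjusted p = 0.294). Neither gene overlapped between the groups and neither reached 1.5-fold. Without fasted replicate 1 the changes were -0.29 for Psmb5 and -0.22 for Psmb7, the latter with an unadjusted p over 0.05.

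None of the immunoproteasome subunits passed the unadjusted p. Psmb8, the counterpart of Psmb5, had 46.5, 21.7 and 15.6 in fasted cells, against 15.35, 16.15 and 19.55 in fed cells (0.57, SE 0.46, limma adjusted p = 0.548). Its positive change rested on fasted replicate 1, and without that array it was 0.12 (limma adjusted p = 0.892). Psmb9, the counterpart of Psmb6, had 30.2, 36.2 and 41.65 in fasted cells, against 38.5, 55.7 and 29.6 in fed cells (-0.16, limma adjusted p = 0.794), with both the highest and the lowest value among the fed arrays. The highest lay in fed replicate 2, which also had the highest sums of 14 leukocyte markers (308) and 18 interferon response genes (4051). The sums of 8 alpha, delta and PP cell markers (18022) and 9 stellate cell and fibroblast markers (640) were highest there too. Cd74 made up 103 of the leukocyte sum, and the interferon response gene Isg15 had its lowest value there (1.53). The part of these cells and genes in the Psmb9 value was not tested. Psmb10, the counterpart of Psmb7, had 69.0, 103 and 96.4 in fasted cells, against 125, 113 and 96.7 in fed cells (-0.33, SE 0.19, limma adjusted p = 0.437), and -0.15 without fasted replicate 1. Of the remaining core subunits, Psmb3 (-0.13), Psmb4 (-0.10), Psmb1 (-0.062) and Psmb2 (0.033) all had an unadjusted p over 0.05. Psmb2 had 689, 675 and 647 in fasted cells, against 663.5, 637 and 666 in fed cells, with overlapping groups.

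**Figure D4:**
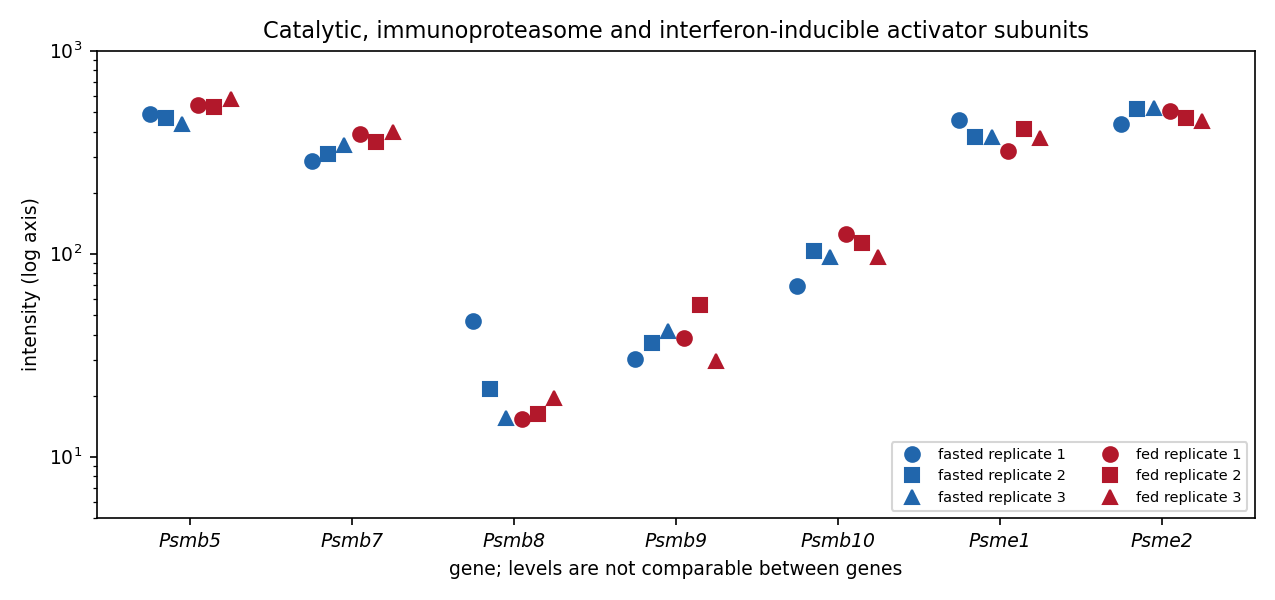
Intensity (log axis) of the catalytic subunits Psmb5 and Psmb7, the immunoproteasome subunits Psmb8, Psmb9 and Psmb10 and the interferon-inducible activator subunits Psme1 and Psme2 on each array, blue fasted and red fed. In Psmb5 and Psmb7 all fasted values lie below all fed values, in the other 5 genes the groups overlap, and the high point of Psmb8 (46.5) is fasted replicate 1.

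Psme1 and Psme2 form an interferon-inducible cap that opens the core without ATP. Psme1 had 455, 376 and 374 in fasted cells, against 319, 410.2 and 371 in fed cells (0.13, SE 0.13, limma adjusted p = 0.613), the highest change of the activators, and Psme2 a change of 0.051 (limma adjusted p = 0.813). Psme4, a nuclear activator known for its part in the degradation of acetylated histones, had 95.6, 80.7 and 113 in fasted cells, against 129.9, 127 and 118 in fed cells. Its groups did not overlap (log2 change -0.39, SE 0.15, limma adjusted p = 0.317), and without fasted replicate 1 the change was -0.39 (limma adjusted p = 0.412). A dimmer probe set of Psme4 passed both thresholds but had overlapping groups (-0.63, limma adjusted p = 0.333). Another did not overlap and passed neither threshold (-0.57, limma adjusted p = 0.427). Psmf1, an inhibitor of the core particle, had 114, 129 and 155 in fasted cells, against 175, 152 and 177 in fed cells, with fasted replicate 3 above fed replicate 2 (-0.35, SE 0.15, limma adjusted p = 0.338).

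The Psmg chaperones pair up the Psma subunits before the core ring closes, and all 4 changes were negative with a median of -0.19, the median of all genes. Psmg2 had 57.5, 51.9 and 74.8 in fasted cells, against 102, 75.4 and 95.5 in fed cells, averaging 61.4 ± 11.9 in fasted and 90.8 ± 13.7 in fed cells (SD, n = 3 each). The groups did not overlap, although fasted replicate 3 came close to fed replicate 2 (log2 change -0.57, SE 0.20, limma adjusted p = 0.291). Psmg3 was the highest of the family, with 91.8, 86.9 and 105 in fasted cells, against 104, 112 and 103 in fed cells (-0.18, limma adjusted p = 0.494), and Psmg1 (-0.18) and Psmg4 (-0.19) lay beside it. Pomp, the chaperone that carries the Psmb subunits into the nascent core, had 403, 464 and 441 in fasted cells, against 518, 515 and 543 in fed cells (-0.27, limma adjusted p = 0.27).

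Around the proteasome, Uchl5, Bag6 and Uba1 were lower past both thresholds, 1 gene in each of 3 lists of 13, 9 and 11 genes (7.69%, 11.1% and 9.09%), which is near the 9.51% of all genes. Of 13 receptors, deubiquitinases, cofactors and subunits outside the Psm names, 3 (23.1%) had lower levels at an unadjusted p under 0.05. This is near the 19.5% of the brighter genes, among which all 13 fall. Uchl5, a deubiquitinase bound to the regulatory particle, had 52.6, 78.0 and 99.9 in fasted cells, against 153, 118 and 144 in fed cells, and was the gene past both thresholds (-0.89, SE 0.25, limma adjusted p = 0.261). Ube3c, a ubiquitin ligase that extends chains on stalled substrates, had a change of -0.42 (limma adjusted p = 0.262). Of 9 shuttle factors, Bag6, which holds misfolded membrane proteins in the cytosol, was lower, at 44.6, 60.9 and 70.4 in fasted cells, against 105, 99.0 and 97.9 in fed cells (-0.80, SE 0.19, limma adjusted p = 0.217), and the shuttle Rad23b had -0.15 (limma adjusted p = 0.331). Of 11 ubiquitin-activating or conjugating enzymes, Uba1, the main ubiquitin-activating enzyme, was lower, at 278, 353 and 385 in fasted cells, against 542, 514 and 658 in fed cells (-0.76, SE 0.16, limma adjusted p = 0.19), and Ube2n had -0.44 (limma adjusted p = 0.286). No gene encoding ubiquitin itself is among them. The median log2 changes of these lists were -0.15, -0.086 and -0.24, against -0.19 for all genes.

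Among 14 known regulators of proteasome transcription none passed both thresholds and the median was -0.29. Nfe2l1, the factor that raises proteasome genes when proteolysis falls short, had 172, 227 and 245 in fasted cells, against 222, 183 and 219 in fed cells (0.034, limma adjusted p = 0.931), with overlapping groups. Ngly1, the glycanase that processes the NFE2L1 protein, had -0.37 (limma adjusted p = 0.27) and Mafk, a partner of NFE2L1 on DNA, -0.40 (limma adjusted p = 0.278). Of 18 genes of the interferon response and class I antigen loading, 10 were dimmer than the median probe set. Past both thresholds 1 of the 18 (5.56%) was lower and 1 higher, against 9.51% and 2.29% of all genes. The lower one was Erap1, which trims peptides in the endoplasmic reticulum (-0.61, limma adjusted p = 0.315). The higher one was Nlrc5, an activator of class I genes (1.52, limma adjusted p = 0.286). Nlrc5 was dim on every array, at 9.5, 9.27 and 21.4 in fasted cells, against 1.54, 2.88 and 7.48 in fed cells, of which the 2 lowest fed values were raised to the floor in the fit. The median of this list was -0.13.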

How the data were processed

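Biotin-labelled RNA of 3 fasted and 3 fed isolates was hybridised to Affymetrix rat arrays. The authors made the deposited intensity values with dChip (model-based expression analysis, normalization to the array of median intensity, mismatch background correction). They are linear, and raw scans and detection calls were not used here. A floor was set at the 10th percentile (3.27), 57 control probe sets were dropped, and log2 values of 31042 probe sets went into a group model in limma 3.58.1 (R 4.3.3; functions lmFit and eBayes, intensity trend on, two-sided, no block), with Benjamini-Hochberg adjustment over all of them. Thresholds of 1.5-fold and a p of 0.05, the sizes the study uses in its comparisons, were applied here to the unadjusted p. An exact permutation test of 3 against 3 cannot go below 0.10. The floor understates changes of dim probe sets, and the number of arrays limits precision. The 20826 probe sets with a single symbol gave 14217 genes, and 6 probe sets with a proteasome symbol among several were not used.

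Values on every array are given for genes past both thresholds, the catalytic subunits, Psmc5 and the lowest and highest change of each family, besides a few chosen after their values were seen (Psma1, Psmb2, Psmc4, Psmd2, Psmd7, Psmd10, Psmg2, Psmf1, Pomp and Nfe2l1). The genes and lists were chosen with earlier results of these data known. The fit was tested on simulated arrays with independent normal noise. The changed probe sets were drawn from those brighter than the median, with as many raised as lowered. With 100 probe sets changed 1.5-fold, 68% passed the unadjusted and 1% the adjusted p, and with 100 changed 3-fold, 95% and 29%. Of the unchanged probe sets 5.62% passed the unadjusted p. The simulation held no shift of whole arrays and no array that stands apart, so these shares need not hold for the real arrays. Alternatives were other normalizations, floors, tests, weights and probe set rules, and each array left out in turn. Motifs were counted in RefSeq promoter windows (GRCr8).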

Additional observations from a re-analysis of the deposited data

How the results depend on the processing

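Psmd1 and Psmd14 stayed lower past both thresholds with each array left out in turn. Psmd4 did not without fasted replicate 1 (-0.55, under 1.5-fold), and without fed replicate 1 (-0.84) or fed replicate 3 (-0.85), or with Welch's test on linear intensities (-0.80), its unadjusted p was over 0.05. Leaving out an array, 2 to 7 proteasome genes were lower past both thresholds and 0 to 0 higher, 7 to 17 were lower at the unadjusted p and 0 to 0 higher, and the median log2 change was -0.35 to -0.20, or -0.15 to -0.075 relative to all genes. Past both thresholds there were 7 without fasted replicate 3, where 18.8% of all genes were called lower, and 6 without fasted replicate 2, where 6.55% were, and at the unadjusted p 7 without fed replicate 3 and 8 without fed replicate 1. Psmb9 ranged between -0.38 and 0.082, Psmc2 between -0.22 and 0.077 and Psmd3 between -0.034 and 0.12.

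Quantile normalization moved the median of all genes to -0.014 and that of the proteasome genes to -0.16, with 9 lower and 1 higher at the unadjusted p and Psmd1, Psmd4 and Psmd14 still lower past both thresholds. Scaling to the 75th percentile moved the medians to 0.033 and -0.057, with 5 lower and 1 higher at the unadjusted p, and Psmd14 (-0.52) then fell short of 1.5-fold. The number of negative changes was 30 and 27 of 44, against 38 in the report. Of the 18 genes followed through every alternative, 4 changed sign in both, Psmb9 (0.061 and 0.085), Psma7 (0.087 and 0.21), Psmc2 (0.098 and 0.20) and Psmg3 (0.038 and 0.068). Without the intensity trend 9 genes were lower at the unadjusted p. Array weights gave 5 lower past both thresholds, 1 higher at the unadjusted p, a median of -0.013 relative to all genes and Psmc2 at 0.28, but their estimation did not converge and put a weight of 11.9 on fasted replicate 2, so the 20 proteasome genes under an adjusted p of 0.05 in that fit are not read as calls. Weights estimated gene by gene, added after seeing the data, gave 4 genes past both thresholds, 0 at an adjusted p of 0.05 and Psmc2 at 0.14. Quantile normalization with fasted replicate 1 left out, also added afterwards, gave 1 gene past both thresholds (Psmd1), 11 lower and 2 higher at the unadjusted p and a median of -0.073, with Psmd4 at -0.42, Psmd14 at -0.56, Psmb9 at 0.11, Psma7 at 0.014 and Psmc2 at 0.16. The cause of these shifts was not tested.

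The labels do not say whether samples with the same replicate number were paired. Deviations of same-numbered samples correlated at -0.02, 0.10 and -0.08, and with 3 arrays per group these values cannot settle it. With the replicate block 3 genes were lower past both thresholds and 14 at the unadjusted p.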
